A study of Mus musculus with 23 samples.

Results

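The Cyp4f cytochrome P450 genes were described in the livers of mice that had inhaled particles. The set was all features on the array listed as Cyp4f13, Cyp4f14, Cyp4f15 or Cyp4v3, and 3 of these 4 genes were measured, of 16915 genes listed in all. Cyp4f14, Cyp4f13 and Cyp4f15 each had 1 feature, and Cyp4v3 was not analysed here. The set was chosen by the ratio of Cyp4f14 after carbon black against air, which lay low in an earlier look at these data. That contrast of Cyp4f14 is therefore given as a description without a test, and the question asked was whether the related genes moved with it.

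Female C57BL/6 mice, 12 to 13 weeks old by the labels, breathed carbon black (CB, Printex 90, n = 8), diesel exhaust particles (DEP, a NIST standard reference material, n = 7) or filtered air (Air, n = 8). Both particles were given at 20 mg/m3 in 4 exposures of 90 min on separate days, and the labels place collection of the liver 90 min after the last exposure. RNA of whole liver carried the Cy5 dye on 1 array per mouse, and a purchased universal mouse reference RNA carried Cy3 on every array. The dyes were not swapped. A log2 ratio here is log2 of liver over reference, so it depends on both channels of a spot. In whole liver, fewer cells of a type and less RNA per cell cannot be told apart.

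CYP4 enzymes are membrane-bound monooxygenases that add a hydroxyl group at or near the methyl end of fatty acids, a step called omega-hydroxylation. The product can be oxidised further to a dicarboxylic acid and shortened in peroxisomes. The CYP4F branch also takes leukotrienes, prostaglandins and the side chains of vitamins as substrates, and in liver it is known as a route by which the leukocyte attractant leukotriene B4 is inactivated. In the mouse, Cyp4f14 hydroxylates leukotriene B4 and the vitamin E side chain. Cyp4f13 and Cyp4f15 are close relatives of it, and the human enzyme CYP4F2 hydroxylates vitamin E and vitamin K. All 3 genes lie on chromosome 17 in the RefSeq mouse annotation, where Cyp4f14 and Cyp4f13 are direct neighbours with 0 annotated genes between them and Cyp4f15 is 12 annotated genes away from Cyp4f14.

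The 250 bases before the start site of each gene are shown so that the letters before 3 neighbouring genes can be set side by side. They are RefSeq sequence in build GRCm38.p6, matched by symbol for all 3 genes, and capitals mark matches to the motifs searched. Cyp4f14 has 4 start sites listed, of which the most upstream was used (chr17:32917357-32917606, minus strand). Cyp4f13 lies at chr17:32947362-32947611 on the minus strand and Cyp4f15 at chr17:32685409-32685658 on the plus strand.
Cyp4f14: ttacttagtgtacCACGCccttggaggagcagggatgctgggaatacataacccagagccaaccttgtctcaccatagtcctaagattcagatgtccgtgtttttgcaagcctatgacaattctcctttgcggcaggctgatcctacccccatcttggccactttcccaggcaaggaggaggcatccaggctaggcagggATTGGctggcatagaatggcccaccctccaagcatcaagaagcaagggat
Cyp4f13: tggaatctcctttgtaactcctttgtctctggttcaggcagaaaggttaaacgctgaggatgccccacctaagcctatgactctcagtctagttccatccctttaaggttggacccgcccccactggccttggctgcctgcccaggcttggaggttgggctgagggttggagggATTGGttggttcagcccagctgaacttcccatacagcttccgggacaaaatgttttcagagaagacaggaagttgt
Cyp4f15: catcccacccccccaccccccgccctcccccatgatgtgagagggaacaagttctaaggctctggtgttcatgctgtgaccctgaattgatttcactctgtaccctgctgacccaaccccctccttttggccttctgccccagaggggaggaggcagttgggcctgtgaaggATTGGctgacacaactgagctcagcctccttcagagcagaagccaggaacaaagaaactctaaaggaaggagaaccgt

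All 3 promoters held 1 CCAAT box, read on the other strand as ATTGG, at -50 to -46 in Cyp4f14, -76 to -72 in Cyp4f13 and -78 to -74 in Cyp4f15, counting backwards from the start site. A CCAAT box on either strand is held by 33.8% of the 32851 promoters of this length. Cyp4f14 alone of the 3 also held the core GCGTG of the element bound by the aryl hydrocarbon receptor, on the other strand at -237 to -233. This core occurs in 28.2% of promoters. None of the 3 windows held TATAAA (12.4% of promoters), the nuclear receptor motif AGGTCA (14.0%), its direct repeat with 1 base between (0.0335%), the antioxidant response core TGACNNNGC (10.2%) or the sterol response motif TCACNCCAC (1.05%). Both strands were searched, and the AGGTCA motif can lie within its own repeat. A match is a description of letters only.

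Every one of the 3 spots was bright enough to read. No spot of these genes carried the absent flag in either channel on any of the 23 arrays, and none reached the scanner maximum of 65535, although the Cy5 spot of Cyp4f14 came close at 65477 in DEP mouse 51. The median Cy5 signal of an array ranged between 262 and 549, and between 13.8% and 41.9% of spots were flagged absent in Cy5. Probe sequences were not used here, so whether a probe also bound RNA of a related Cyp4f gene was not tested.

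Cyp4f14 and Cyp4f15 both stood far above the reference RNA in liver, and Cyp4f13 less so. The mean ratio of Cyp4f14 was 14.6-fold in CB mice, 18.6-fold in DEP mice and 24.5-fold in Air mice, and 0.899% of features had a higher ratio in Air mice. Cyp4f15 was at 15.3-fold in CB mice, 18.8-fold in DEP mice and 19.4-fold in Air mice, with 1.17% of features above it in Air mice. Cyp4f13 was at 3.79-fold, 3.36-fold and 3.75-fold in CB, DEP and Air mice, with 5.35% of features above it in Air mice. These folds are relative to the reference RNA and do not order the genes by their amount in liver.

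The Cyp4f14 ratio was lowest after CB. Its log2 ratio in CB mice was 3.99, 3.92, 3.72, 3.89, 3.86, 4.32, 3.92 and 3.33 (median 3.90). In DEP mice it was 4.20, 4.35, 4.15, 4.16, 4.60, 4.11 and 3.96 (median 4.16). In Air mice it was 4.11, 4.84, 4.88, 4.67, 4.88, 4.54, 4.70 and 4.29 (median 4.69). The groups overlapped at their edges: 7 of 8 CB mice and 2 of 7 DEP mice lay below every Air mouse, and CB mouse 59 at 4.32 was the exception among CB mice. The mean was 3.87 ± 0.28 in CB mice, 4.22 ± 0.20 in DEP mice and 4.61 ± 0.29 in Air mice (SD, n = 8, 7 and 8).

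**Figure D1:**
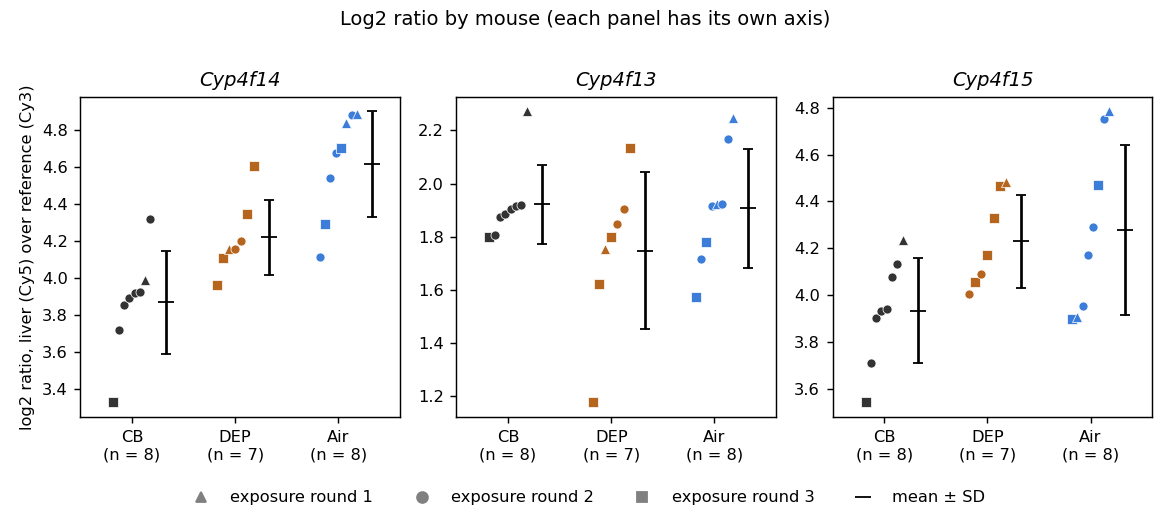
Log2 ratio of liver (Cy5) over reference (Cy3) for Cyp4f14, Cyp4f13 and Cyp4f15, 1 point per mouse, with CB, DEP and Air mice along the horizontal axis, marker shape for the exposure round and bars for mean ± SD. Cyp4f14 is lowest in CB mice (3.33 to 4.32) and highest in Air mice (4.11 to 4.88), Cyp4f15 overlaps between all groups, and Cyp4f13 spans 1.80 to 2.27 in CB mice and 1.58 to 2.25 in Air mice.

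The difference of CB minus air for Cyp4f14 was -0.75 on the log2 scale (standard error 0.13), a fold of 0.596, and 0.0910% of features had a more negative difference. This value chose the gene set and carries no test. The DEP difference was smaller, at -0.40 (95% CI -0.67 to -0.12, limma adjusted p = 0.997 over all 18688 features), and did not pass the adjusted threshold of 0.05. It shares the Air mice with the first, and their values helped to choose the set. Its interval and p-value are therefore not free of that choice. CB minus DEP rests on the CB values that chose the set and was -0.35 (standard error 0.13), given without a test. The order of the mean ratios was CB, DEP and Air from low to high. With the liver channel alone it was DEP, CB and Air, and CB minus DEP turned to 0.32. Without 3 arrays with a low Cyp4f14 spot, described below, CB minus DEP in the liver channel was -0.17.

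Cyp4f15 was also lower after CB, by less than Cyp4f14. Its log2 ratio ranged between 3.54 and 4.23 in CB mice (median 3.93), between 4.01 and 4.48 in DEP mice (median 4.17) and between 3.90 and 4.79 in Air mice (median 4.23). Only 2 of 8 CB mice lay below every Air mouse. The mean was 3.93 ± 0.23 in CB mice, 4.23 ± 0.20 in DEP mice and 4.28 ± 0.36 in Air mice (SD). CB minus air was -0.34 (95% CI -0.62 to -0.07, limma adjusted p = 0.820), and 1.67% of features had a more negative difference. When arrays were centred on their median in place of loess, it was -0.67 (limma adjusted p = 0.0495), in a fit that called 285 features and moved the median of all features to -0.11. DEP minus air was -0.05 (95% CI -0.33 to 0.24, limma adjusted p = 0.997) and CB minus DEP was -0.30 (95% CI -0.58 to -0.01, limma adjusted p = 1.00).

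Cyp4f13, the direct neighbour of Cyp4f14 on the chromosome, had nearly equal means in CB and Air mice. Its log2 ratio ranged between 1.80 and 2.27 in CB mice (median 1.89), between 1.18 and 2.13 in DEP mice (median 1.80) and between 1.58 and 2.25 in Air mice (median 1.92). The groups overlapped throughout, with means of 1.92 ± 0.15 in CB mice, 1.75 ± 0.30 in DEP mice and 1.91 ± 0.22 in Air mice (SD). CB minus air was 0.02 (95% CI -0.22 to 0.25, limma adjusted p = 0.993). The sign of this small value turned under 5 alternative settings and on leaving out any of 4 single mice, as given in the closing section. DEP minus air was -0.16 (95% CI -0.40 to 0.09, limma adjusted p = 0.997), and -0.063 without DEP mouse 57, the lowest of its group at 1.18.

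Neither relative therefore passed the adjusted threshold after CB, and 0% of the 18688 features did so in that contrast. At an unadjusted p under 0.05, limma counted 1110 features (5.94%) for CB minus air, 900 (4.82%) for DEP minus air and 643 (3.44%) for CB minus DEP. Cyp4f15 was among those of CB minus air and of CB minus DEP, which share the CB mice. Cyp4f14 was among those of DEP minus air, where its p-value is not free of the choice of the set. In direction, 1 of the 2 relatives lay below 0 after CB, where 49.8% of all features did, and both did after DEP, where 50% of all features did. On each array the Cyp4f14 ratio could also be set against its relatives. Cyp4f14 exceeded Cyp4f13 by 1.95 ± 0.27 in CB mice, 2.47 ± 0.42 in DEP mice and 2.71 ± 0.24 in Air mice (log2, SD), and it exceeded Cyp4f15 by -0.07 ± 0.14, -0.01 ± 0.17 and 0.34 ± 0.33 in CB, DEP and Air mice. These differences contain the values that chose the set and are given without a test.

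The 2 channels of the spots were then examined separately, each as log2 signal minus the median of the array. For Cyp4f14 the liver channel was little lower after CB, and the reference channel was higher. Its Cy5 signal was 16355 to 49402 in CB mice, 7151 to 65477 in DEP mice and 5896 to 51214 in Air mice, and its centred log2 Cy5 level was 5.92 ± 0.28 in CB mice, 5.60 ± 1.02 in DEP mice and 6.08 ± 0.82 in Air mice (SD). Its centred Cy3 level was 2.09 to 2.38 in CB mice (median 2.13), -0.31 to 2.34 in DEP mice (median 1.85) and -0.27 to 2.22 in Air mice (median 1.63). CB minus air was -0.17 in Cy5 (standard error 0.36) and 0.76 in Cy3 (standard error 0.32), and 0.407% of features had a larger Cy3 difference. The reference RNA was the same purchased material on all arrays, and why its signal at this spot differed was not tested.

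**Figure D2:**
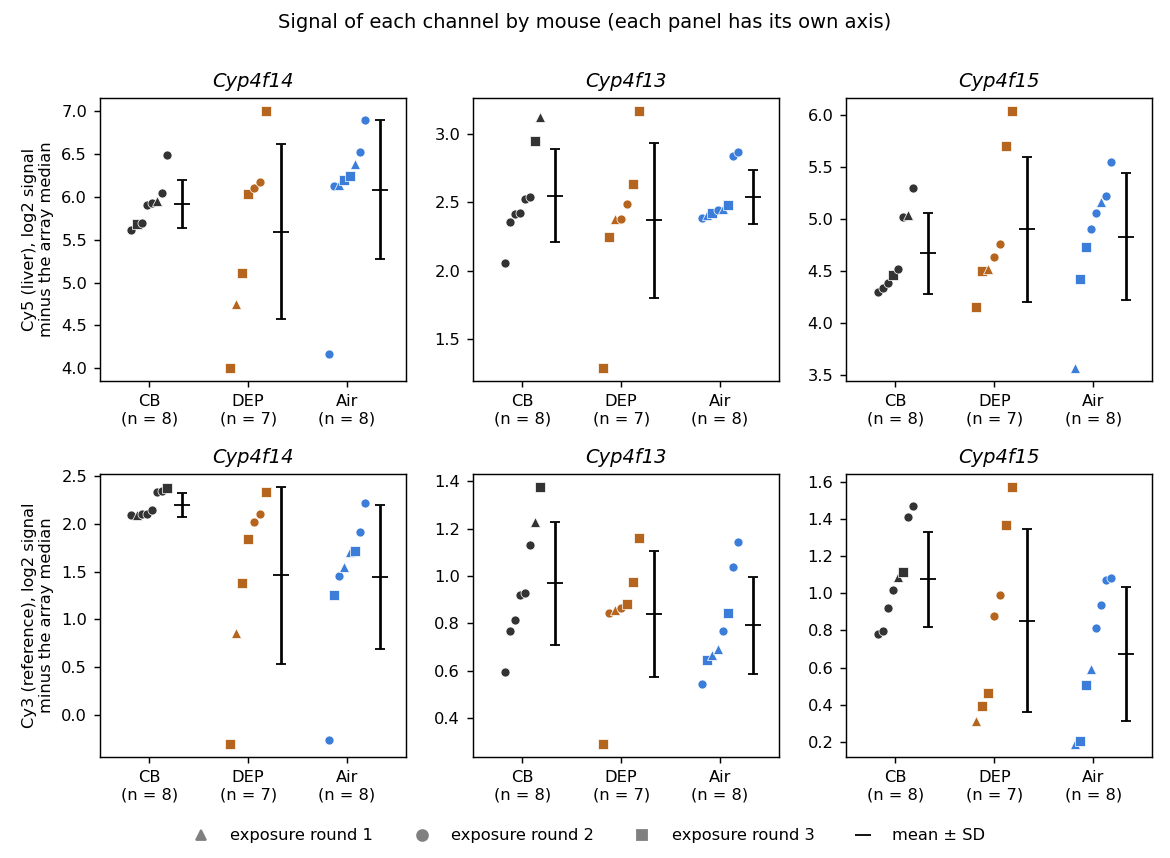
Signal of the liver channel (Cy5, upper row) and of the reference channel (Cy3, lower row) for each gene, as log2 signal minus the array median, 1 point per mouse in CB, DEP and Air groups, with mean ± SD. The Cyp4f14 reference signal of CB mice lies in a narrow band of 2.09 to 2.38, while Air mouse 54 and DEP mouse 57 lie at the bottom of their groups in both channels.

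On 3 arrays the Cyp4f14 spot was low in both channels. These were DEP mouse 57 (Cy5 7151, Cy3 276), DEP mouse 55 (Cy5 10442, Cy3 527) and Air mouse 54 (Cy5 5896, Cy3 208), while the group medians of Cy5 were 18780 in CB mice, 21408 in DEP mice and 31548 in Air mice. Without those 3 arrays, a setting chosen after seeing the data, CB minus air for Cyp4f14 was -0.44 in Cy5, 0.51 in Cy3 and -0.76 in the ratio. The log2 ratio of Cyp4f14 on these arrays was 4.60 in DEP mouse 57, the highest of its group, 4.15 in DEP mouse 55 and 4.54 in Air mouse 54, both within the range of the rest of their groups.

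After CB the Cy3 signals of the relatives differed from air by less than that of Cyp4f14, and no channel of a relative passed the adjusted threshold. In Cy5 the difference of Cyp4f15 was close to that of Cyp4f14, at -0.158 and -0.169. With the round as a block these were -0.208 and -0.204, and without the 3 arrays with a low Cyp4f14 spot -0.125 and -0.443. For Cyp4f15, CB minus air was -0.16 in Cy5 (95% CI -0.72 to 0.41, limma adjusted p = 0.897) and 0.40 in Cy3 (95% CI 0.03 to 0.78, limma adjusted p = 1.00). For Cyp4f13 it was 0.01 in Cy5 and 0.18 in Cy3, with standard errors of 0.19 and 0.13. With all arrays, the larger difference of Cyp4f14 after DEP was in the liver channel, at -0.49 in Cy5 (95% CI -1.25 to 0.27) and 0.02 in Cy3. Without the 3 arrays with a low Cyp4f14 spot, DEP minus air was -0.27 in Cy5 and 0.25 in Cy3. No feature passed the adjusted threshold in either channel alone, and at an unadjusted p under 0.05 limma counted 828 features (4.43%) in Cy5 and 436 (2.33%) in Cy3 for CB minus air, and 467 (2.5%) and 412 (2.2%) for DEP minus air. Of the 633 features lower after CB in the ratio at an unadjusted p under 0.05, 252 (39.8%) differed more in Cy3 than in Cy5.

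**Figure D3:**
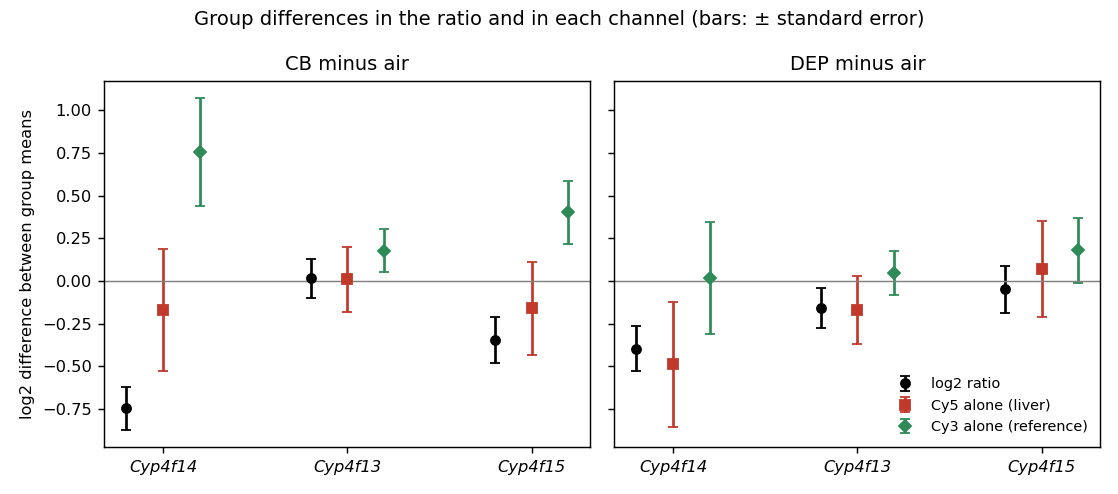
Differences of group means, CB minus air on the left and DEP minus air on the right, for the log2 ratio, the liver channel alone and the reference channel alone, with bars of ± 1 standard error. For Cyp4f14 after CB the ratio is at -0.75, Cy5 at -0.17 and Cy3 at 0.76, and after DEP the Cy3 difference is 0.02.

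Mice were exposed in 3 rounds that did not hold the groups evenly. Round 1 held 1 CB, 1 DEP and 2 Air mice, round 2 held 6, 2 and 4, and round 3 held 1, 4 and 2. Within rounds 1, 2 and 3, CB minus air of the Cyp4f14 ratio was -0.87, -0.61 and -1.17, that of Cyp4f15 was -0.11, -0.34 and -0.64, and that of Cyp4f13 was 0.19, -0.05 and 0.12. DEP minus air was -0.71, -0.37 and -0.24 for Cyp4f14, 0.14, -0.24 and 0.07 for Cyp4f15 and -0.33, -0.06 and 0.01 for Cyp4f13. In the single channels of Cyp4f14, CB minus air was -0.31, 0.02 and -0.53 in Cy5 and 0.47, 0.86 and 0.89 in Cy3 within rounds 1, 2 and 3. Those of Cyp4f15 were 0.67, -0.54 and -0.11 in Cy5 and 0.70, 0.09 and 0.76 in Cy3, so that in round 2, with 6 of 8 CB mice, its larger difference was in the liver channel. With the round as a block in the fit, CB minus air was -0.75 for Cyp4f14 and -0.33 for Cyp4f15 (limma adjusted p = 0.874). The sign of the Cyp4f14 ratio was thus negative in each round under both particles, while rounds 1 and 3 rest on 1 CB mouse each. That of its Cy5 signal was not, as its difference from air in round 2 was 0.02 for CB and 0.21 for DEP. The Air mice of round 2 included mouse 54, whose low Cyp4f14 spot had a centred log2 Cy5 of 4.17, with the nearest Air mouse at 6.13. Its centred log2 Cy3 was -0.27, so the round 2 differences of both channels include that spot. The sign of Cy5 in round 2 without this mouse was not tested. CB minus air of the ratio chose the set, so its sign by round is a description only.

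Across the 23 arrays the ratios of Cyp4f14 and Cyp4f15 went together, and neither went with Cyp4f13. Pearson r was 0.70 for Cyp4f14 and Cyp4f15, 0.62 over deviations from the group means, 0.08 for Cyp4f14 and Cyp4f13, and 0.00 for Cyp4f13 and Cyp4f15. All points share their array and the reference RNA. With Cy5 alone and all 23 arrays the order was another one, at 0.14 for Cyp4f14 and Cyp4f15 and 0.60 for Cyp4f14 and Cyp4f13. These Cy5 values include the 3 arrays with a low Cyp4f14 spot. On 1 of them, DEP mouse 57, Cy5 was the lowest of its group for Cyp4f14 and Cyp4f13 but not for Cyp4f15. Whether the order in Cy5 holds without the 3 arrays was not tested. Of all features, 0.685% had a higher r of the ratio with Cyp4f14 than Cyp4f15 had.

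The genes whose ratio was most like each member were sought among 7010 candidate features with no saturated and no absent Cy5 spot. Those nearest to Cyp4f14 were Lect2 (r = 0.86), Znhit1 (0.85) and Mtres1 (0.85), with r of 0.84, 0.81 and 0.75 over deviations from the group means but 0.17, 0.18 and 0.14 with Cy5 alone. Those nearest to Cyp4f13 were Tlr9 (0.81), Pdzk1 (0.81) and Pla2g12b (0.76), and with Cy5 alone their r was 0.78, 0.72 and 0.82. For Cyp4f15 they were Fdx2 (0.85), Wrap53 (0.81) and Atg16l1 (0.81), with 0.74, 0.33 and 0.63 with Cy5 alone. Of the 3 genes nearest to Cyp4f14, Mtres1 was also among its nearest 3 by Spearman's rho, and Lect2 and Znhit1 were not. The likeness of Cyp4f14 to its nearest genes was thus present in the ratio and weak in the liver channel, while that of Cyp4f13 was present in both. The liver channel here again includes the 3 arrays with a low Cyp4f14 spot.

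None of the other Cyp4 genes had a mean difference from air as large as that of Cyp4f14 after CB. That value chose the set for being low, so the comparison is a description only. Of 10 measured, 7 were lower and 3 higher after CB (median -0.05), as after DEP (7 and 3, median -0.09), against a median of 0.00 over all features, and none passed the threshold. Cyp4a31 was the farthest from 0 among those with the smallest p, at -0.37 after CB (standard error 0.18, limma adjusted p = 0.847) and -0.17 after DEP. Cyp4f16, another branch member, was at -0.17 after CB and -0.03 after DEP. Cyp4f18 was at -0.04 and -0.12, and Cyp4f39 at 0.02 and -0.05. In Cy5 and Cy3, CB minus air was 0.01 and 0.56 for Cyp4a31 and -0.34 and -0.14 for Cyp4f16. The pseudogene Cyp4f41-ps was at -0.18 and -0.13, on spots flagged absent on all 23 arrays. Cyp4a14, which fatty acids induce through the receptor Ppara, was at -0.02 after CB and -0.17 after DEP, on spots saturated on 17 arrays.

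**Figure D4:**
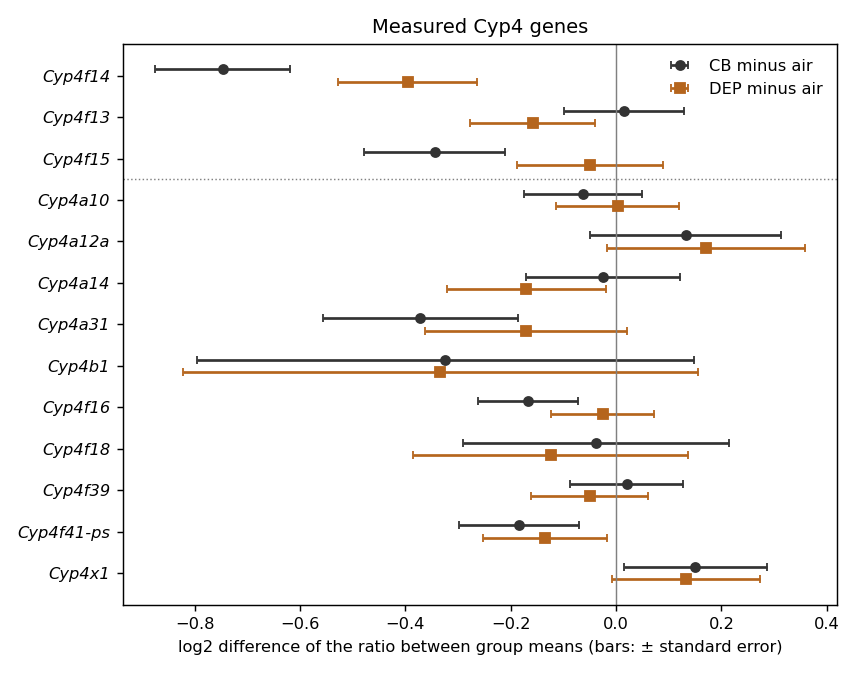
Difference of the log2 ratio, CB minus air and DEP minus air, for the 3 members (above the dotted line) and 10 other measured Cyp4 genes, with bars of ± 1 standard error. Cyp4f14 after CB at -0.75, the value that chose the set, lies farthest to the left, and the 10 other genes lie between -0.37 and 0.17.

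P450 enzymes receive electrons from other membrane proteins, and the hydroxylated fatty acid is oxidised further by dehydrogenases. The donors measured were Cyb5a, Cyb5b and Cyb5r3, the other measured genes were dehydrogenases, and the reductase Por was not measured here. Of 13 such genes, 7 were lower and 6 higher after CB (median -0.01), and 9 were lower and 4 higher after DEP (median -0.18), with none past the threshold. Cyb5r3, which reduces cytochrome b5, was at -0.37 after CB (limma adjusted p = 0.698) and -0.43 after DEP (0.997), on spots saturated on 6 arrays. Cytochrome b5 itself, Cyb5a, was at -0.39 and -0.37, on spots saturated on 19 arrays. The alcohol dehydrogenase Adh1 was at -0.42 after CB (limma adjusted p = 0.720) and -0.40 after DEP, on spots saturated in Cy5 on 9 arrays. The aldehyde dehydrogenase Aldh1a1 was at -0.21 and -0.40, on spots saturated on 4 arrays. In Cy5 and Cy3, CB minus air was -0.58 and -0.02 for Cyb5r3 and 0.10 and 0.63 for Cyb5a. It was 0.17 and 0.74 for Adh1 and -0.31 and 0.14 for Aldh1a1.

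Genes that make, sense or degrade leukotrienes and other eicosanoids lay on both sides of 0. Of 18 measured, 10 were lower and 8 higher after CB (median -0.02), and 6 were lower and 12 higher after DEP (median 0.04), with none past the threshold. Alox5ap, which presents arachidonic acid to the lipoxygenase that begins leukotriene synthesis, was at 0.21 after CB and 0.10 after DEP. Alox15, another lipoxygenase, was at -0.26 and -0.12 on spots flagged absent on 17 arrays. Ptges, a prostaglandin E synthase, was at 0.30 and 0.54 on spots flagged absent on 11 arrays, and the epoxide hydrolase Ephx1 at 0.18 and 0.36. In Cy5 alone, CB minus air was 0.12 for Alox5ap, 0.03 for Alox15, -0.01 for Ptges and -0.11 for Ephx1.

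Of 15 measured regulators of these genes, 11 were lower and 4 higher after CB (median -0.12), and 10 were lower and 5 higher after DEP (median -0.03), with none past the threshold. Ppara, the fatty acid receptor that drives Cyp4a genes, was at -0.35 after CB (limma adjusted p = 0.827) and -0.24 after DEP. Nr1h3, the liver X receptor alpha, was at -0.34 and -0.06. In Cy5 and Cy3, CB minus air was 0.07 and 0.58 for Ppara and -0.23 and 0.28 for Nr1h3.

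Markers of hepatocytes, the main cell type of liver, stood high above the reference RNA. Of 8 measured, 6 were lower and 2 higher in the ratio after CB (median -0.21), 7 were lower and 1 higher after DEP (median -0.25), and 6 had saturated spots. Asgr1 was at -0.62 after CB and -0.53 after DEP, on spots saturated on 10 arrays, with CB minus air of -0.03 in Cy5 and 0.75 in Cy3. Alb was at -0.37 and -0.67, on spots saturated on 23 arrays. In single channels, CB minus air of the 8 lay between -0.22 and 0.68 in Cy5 and between -0.05 and 0.78 in Cy3. Their mean log2 ratio ranged between 3.58 and 4.47 in CB mice, between 3.97 and 4.42 in DEP mice and between 4.13 and 4.79 in Air mice. Markers of Kupffer cells ranged between 1.67 and 2.44 in CB mice, 1.66 and 2.72 in DEP mice and 1.77 and 2.35 in Air mice. The ratios of erythroid markers were lower after CB in 4 of 4 genes (median -0.30) and after DEP in 3 of 4 (median -0.25). After CB the differences were -0.54 for Hba-a1 (saturated on 23 arrays), -0.50 for Hbb-b2 (saturated on 9), -0.10 for Alas2 and -0.06 for Slc4a1. After DEP they were -0.57, -0.31, -0.19 and 0.14. In Cy5 and Cy3, CB minus air was 0.09 and 0.75 for Hba-a1 and 0.12 and 0.76 for Hbb-b2. It was -0.02 and 0.16 for Alas2, and -0.11 and -0.04 for Slc4a1. The mean log2 ratio of these markers was 2.03 to 2.87 in CB mice, 2.08 to 2.89 in DEP mice and 2.56 to 3.04 in Air mice. Markers of cholangiocytes, sinusoidal endothelium, stellate cells, neutrophils, lymphocytes and pancreatic acinar cells had median differences between -0.10 and 0.12 after CB and between -0.02 and 0.07 after DEP, and no marker passed the threshold. The part of these cell types in the Cyp4f14 result was not tested.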

How the data were processed

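Liver RNA (Cy5) of 23 mice was set against a universal mouse reference RNA (Cy3) on 2-colour oligonucleotide arrays. Per the study's methods, the authors scanned the arrays, flagged as absent any spot below the trimmed mean plus 3 trimmed SDs of the negative control probe, and lowess-normalized the ratios. The deposited intensity of each channel is on a linear scale with no background taken off, and the deposited log2 ratios are the authors' lowess values of Cy5 over Cy3. The submitters' processing notes name R 2.4.1. Of 22575 features, the 18688 with a listed gene were used. Signals of 1 array carry no read depth, so the number of mice limits the precision.

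Loess was applied within each array to the intensities, and all 3 groups were fitted in 1 limma model (limma 3.58.1, R 4.3.3) with Benjamini-Hochberg adjustment over all 18688 features at 0.05. Each channel alone was log2 signal minus the array median, fitted likewise. Intervals are 95% intervals of the fit. The step was tested on simulated data. Mice are separate animals, and p-values measure the spread between them.

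Named genes were all features of the members and up to 4 genes per list with the smallest p in either contrast against air. The other measured Cyp4f genes and the 3 genes most like each member by Pearson r were named too. The members and lists were chosen with earlier results of these data known. Alternatives changed the ratio source, normalization, background, filter, blocks, rounds, weights, mice and centring. Promoters came from RefSeq tables of GRCm38.p6. Gene lists covered other Cyp4 genes, electron donors and dehydrogenases, eicosanoid genes, regulators and liver cell markers.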

Additional observations from a re-analysis of the deposited data

Results flagged for a closer look

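Of 27 groups of values examined (3 genes, 3 measures and 3 groups of mice), 4 held 1 mouse far from the rest of its group, where chance gives about 1 in 20. The Cyp4f14 signal in Air mouse 54 was low in both channels. Its centred log2 Cy5 was 4.17, with the nearest Air mouse at 6.13, and its centred log2 Cy3 was -0.27, with the nearest at 1.26. The log2 ratio of Cyp4f13 in CB mouse 445 was 2.27, with the nearest CB mouse at 1.92. The centred log2 Cy3 of Cyp4f13 in DEP mouse 57 was 0.29, with the nearest DEP mouse at 0.84.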

How the results depend on the processing

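The ratio of Cyp4f14 was negative for CB minus air and DEP minus air under every alternative run. For CB minus air it was -1.17 in the last exposure round alone, which holds 1 CB mouse assumed to vary like the others, -1.03 with median centring and -0.17 with Cy5 alone. Leaving out single mice gave -0.82 to -0.67. Cyp4f15, CB minus air, was negative under every alternative run, from -0.67 with median centring (limma adjusted p = 0.0495) to -0.16 with Cy5 alone. The count of features called for CB minus air, 0 in the reported fit, was 1 with array weights, 50 in the last round alone, 285 with median centring and 0 to 1 on leaving out single mice; the 1, with array weights, without Air mouse 442 and without CB mouse 59, was Cyp4f14, whose low value chose the set, so it is no test of that gene. CB minus DEP had 100 in the last round alone, and DEP minus air had 0 throughout. Median centring moved the median of all features to -0.11 for CB minus air, -0.04 for DEP minus air and -0.07 for CB minus DEP.

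Some values changed sign. For Cyp4f13, CB minus air was -0.060 with the array set as a block, -0.0013 with the deposited ratios, -0.27 with median centring, -0.048 in the second round alone, -0.012 without the 3 arrays with a low Cyp4f14 spot and -0.035 to 0.064 on leaving out single mice. Its CB minus DEP was -0.0048 with median centring and its DEP minus air 0.0055 in the last round alone, and -0.063 without DEP mouse 57, without which CB minus DEP was 0.078. Cyp4f15, DEP minus air, was 0.071 with Cy5 alone, 0.073 in the last round alone and -0.10 to 0.023 on leaving out single mice (above 0 without Air mouse 49 or Air mouse 53). Cyp4f14, CB minus DEP, was 0.32 with Cy5 alone. In Cy3 alone, DEP minus air was -0.014 for Cyp4f13 and -0.043 for Cyp4f14 with the 75th percentile as centre, and -0.033 for Cyp4f14 after loess and Aquantile, a setting chosen after seeing the data. Without the 3 arrays, Cyp4f13 in Cy5 was -0.012 for CB minus air, -0.035 for CB minus DEP and 0.023 for DEP minus air, and Cyp4f14, CB minus DEP, was -0.17. By Spearman's rho the gene most like Cyp4f14 was another than Lect2, at 0.88. The cause of these changes was not tested.

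No paired analysis was possible because mouse numbers are not shared between groups. Averaging several features and leaving out saturated spots changed nothing, since each gene had 1 feature and no saturated spot, and Aquantile leaves the ratios as they are. With 1 array per mouse and 1 CB mouse in each of 2 rounds, small differences within a round were not detectable.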
